A study of Mus musculus with 13 samples.

Results

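Goblet cells, the mucus-secreting cells of the colon lining, were taken from single-cell RNA-seq of 10 colon tumors and 3 samples of adjacent mucosa. A barcode counted as a goblet cell when it held at least 500 UMIs (unique molecular identifiers, 1 per captured RNA molecule) and 200 genes, under 25% mitochondrial UMIs, at least 10 UMIs of the epithelial genes Epcam, Krt8 and Krt18 together, none of the leukocyte gene Ptprc, at least 10 of Muc2 and at least 5 of Agr2. Barcodes with 10 or more UMIs of the lysozyme gene Lyz1, or with 4 or more UMIs of the proliferation genes Mki67 and Top2a together, were left out. Of 137591 barcodes, 4325 (3.14%) met these conditions, 3934 of them in mucosa (91.0%) and 391 in tumor. The cells were thus chosen by their measured Muc2 and Agr2 among the other genes of the rule, and the levels of these genes are given as a description, with no test.

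Every library came from C57BL/6J mice of the genotype ApcMin/+; p16cis/cis kept on the supplemented diet, so the mutant Apc allele, the engineered p16 allele that gains DNA methylation, and the added choline, betaine, folic acid and vitamin B12 were common to tumor and mucosa. No library came from another genotype or diet, and the comparison open to the design was tumor against adjacent mucosa. The sample titles carry 3 animal codes: code A (24 weeks of age) gave mucosa 2 and tumors 5 to 8, code B (23 weeks) gave mucosa 3 and tumors 9 and 10, and code C (20 weeks) gave mucosa 1 and tumors 1 to 4. Tumors of 1 code are not independent animals, so p-values over libraries partly measure the spread between tumors of the same mouse. The tissues were also dissociated differently, mucosa with EDTA and TrypLE and tumors with a tumor dissociation kit, and tissue and dissociation cannot be told apart in any comparison of tumor with mucosa.

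Goblet cells make and store the gel-forming mucin Muc2 in apical granules and release it to build the mucus layer that keeps bacteria away from the colon surface. The protein disulfide isomerase Agr2 is needed for Muc2 to fold, the transcription factors Atoh1 and Spdef direct the fate and the secretory maturation of the lineage, and Zg16 (a lectin that binds bacterial cell walls), Fcgbp and Clca1 are secreted with the mucin. Retnlb, a resistin-like peptide with bactericidal activity, is another goblet cell product. Goblet cells are born near the crypt base and mature as they move toward the surface, so cells of different age and position occur in 1 sample.

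The libraries held 6537 to 15049 barcodes and 57221300 to 116133079 UMIs. Goblet cells had a median of 10974 to 25523 UMIs per library in mucosa and of 9403 to 26520.5 in tumors, and a median of 3.34 to 4.76% mitochondrial UMIs in mucosa and of 4.17 to 13.0% in tumors, so the tissues also differed in this measure of RNA quality. In 7 libraries labelled Female, as in the others, Xist gave at most 10 UMIs and 4 Y-linked genes together 105 to 129 CPM (UMIs scaled to a common library total), so sex labels were not used. Of 135282 distinct barcode sequences, 2284 occurred in more than 1 library, as did those of 139 goblet cells, and 0 of the shared barcodes had the same UMI total in all their libraries. High simulated-doublet scores fell on 358 goblet cells, which were kept and removed only as an alternative.

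The defining markers were checked against the other epithelium of the same libraries, the 19046 barcodes that met all other conditions with under 3 Muc2 UMIs. All 6 markers were far higher in the goblet cells, a description since the rule used 2 of them. Zg16 lay at 6206 to 26090 CPM in the goblet cells of mucosa and at 26.8 to 147 CPM in the other epithelium of mucosa. Fcgbp, a large mucus protein that binds the Fc part of IgG, lay at 540 to 2109 against 2.29 to 18.0 CPM. Retnlb lay at 2670 to 4148 against 4.85 to 39.9 CPM, and Spdef at 309 to 392 against 5.89 to 9.23 CPM. The ranges did not overlap for any of these genes, and the same held in the tumors, where Retnlb lay at 158 to 2352 CPM in goblet cells and at 0.0514 to 1.16 CPM in other epithelium. The 15 genes of a mucus list without Muc2 and Agr2 together took 40850 to 48010 CPM in the goblet cells of mucosa and 35840 to 108200 CPM in those of 9 tumors, against 407 to 1270 CPM in other epithelium. The other epithelium was itself chosen for few Muc2 UMIs, which widens such gaps. Markers of most other cells were low in the goblet cells of mucosa. Those of fibroblasts and endothelium summed to at most 0.275 CPM, tuft cells to 7.84, neutrophils to 8.50 and T cells to 19.4. Macrophage markers reached 21.7, Paneth markers (without the rule's Lyz1) 27.3, enteroendocrine markers 80.1 and B and plasma cell markers 437 CPM. Erythrocyte markers lay higher, at 341 to 1241 CPM. Surface colonocyte genes summed to 4450 to 11780 CPM, beside 15730 to 44250 in the other epithelium of mucosa. In the goblet cells of tumors some of these sums were far higher: Paneth markers reached 10810 CPM in 1 tumor (median 146), B and plasma cell markers 9502 (median 468), enteroendocrine markers 5480 (median 4.04) and neutrophil markers 1137 (median 223). The part of these other markers in the results from tumors was not tested.

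The promoters of Muc2 and Fcgbp are shown because Muc2 defines the cells and Fcgbp is among the genes that separate their kinds. Each line gives the 250 bases before the gene start from RefSeq (GRCm38.p6), 5′ to 3′ on the strand of the gene, chr7:141690090-141690339 (plus strand) for Muc2 and chr7:28070986-28071235 (plus strand) for Fcgbp. Capitals mark CACCC or its reverse complement GGGTG, a core bound by the Klf family, and TTTAT or ATAAA, a core bound by the Cdx family.
Muc2: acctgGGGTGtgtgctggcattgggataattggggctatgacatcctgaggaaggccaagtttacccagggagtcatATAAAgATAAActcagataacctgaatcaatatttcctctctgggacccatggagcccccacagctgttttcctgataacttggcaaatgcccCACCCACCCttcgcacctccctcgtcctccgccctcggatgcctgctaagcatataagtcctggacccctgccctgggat
Fcgbp: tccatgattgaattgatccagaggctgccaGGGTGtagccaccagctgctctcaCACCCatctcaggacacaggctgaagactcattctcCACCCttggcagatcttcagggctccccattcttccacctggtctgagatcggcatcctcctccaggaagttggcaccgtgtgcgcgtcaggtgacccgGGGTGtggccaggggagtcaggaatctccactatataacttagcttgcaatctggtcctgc
The Muc2 window held 3 CACCC matches on either strand, of which a pair overlapped, and 2 TTTAT matches. The Fcgbp window held 4 CACCC matches and 0 TTTAT matches. Over all 32851 promoter windows of the table, 52.0% held a CACCC match and 37.3% a TTTAT match, so either is common, and a match is a description of the letters only. Of the 170 genes named by the rule for named genes, 132 had a promoter in the table.

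Near the limits of the rule, 61 barcodes with 10 to 12 Muc2 UMIs were inside and 83 with 7 to 9 were just outside. The inner ones had a median of 1 Zg16 UMI and 0 Retnlb UMIs at 9514 UMIs in all, and the outer ones a median of 0 of both at 9627. For Agr2, 47 barcodes with 5 to 7 UMIs were inside and 76 with 2 to 4 were outside, with medians of 137 and 131 Zg16 UMIs. The proliferation limit removed 1163 barcodes that met every other condition, and the Lyz1 limit removed 403.

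Goblet cells made up a larger share of the non-cycling epithelium in every mucosa library than in any tumor. The share was 58.1% in mucosa 1 (exact 95% binomial interval 55.9 to 60.3%), 28.9% in mucosa 2 and 25.3% in mucosa 3. In the tumors it ran from 0.645% in tumor 9 (0.260 to 1.32%) through a median of 2.67% to 8.64% in tumor 3 (7.13 to 10.3%). The groups did not overlap, and mucosa 1 stood well above mucosa 2 and 3. The intervals cover counting error only. With every barcode thinned to 5000 UMIs the shares were 50.8, 29.3 and 23.2% in mucosa and 0.674 to 7.23% in tumors. No test of this difference was planned, and the part of the dissociation in it cannot be told apart from that of the tissue.

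**Figure D1:**
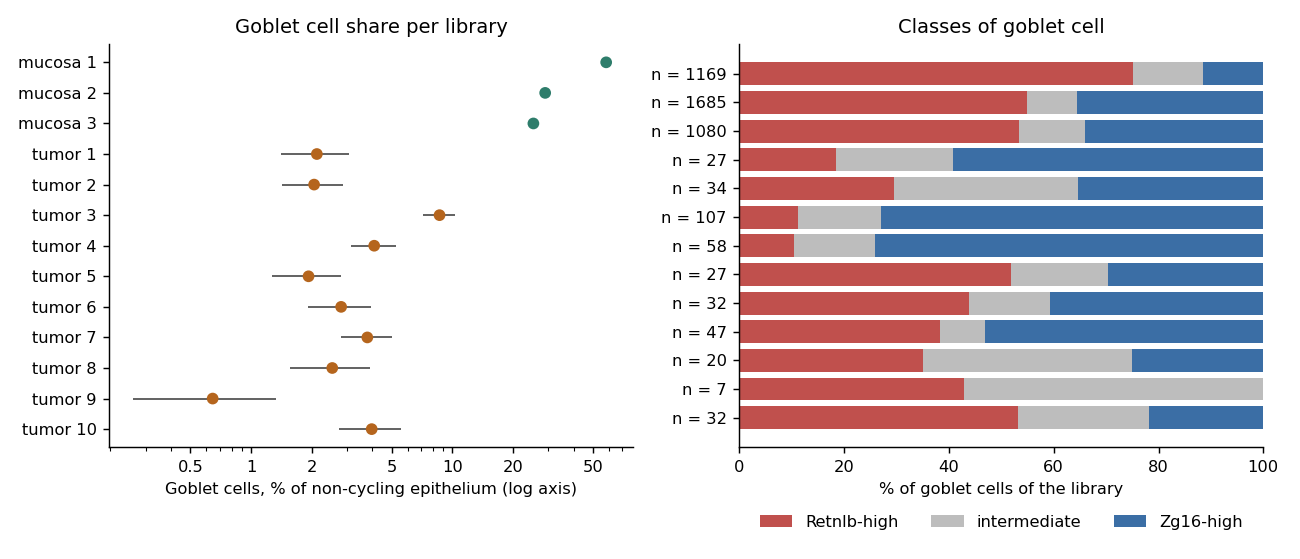
Goblet cell shares in each of the 13 libraries. The left panel plots goblet cells as % of non-cycling epithelium on a log axis, with exact 95% binomial intervals, mucosa and tumors in different colors. The right panel stacks the % of goblet cells of each library that were Retnlb-high, intermediate or Zg16-high, with n at left. Mucosa libraries lie at 25.3 to 58.1% and tumors at 0.645 to 8.64%, and the Retnlb-high bars are shortest in tumors 3 and 4.

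Among themselves the goblet cells differed widely in Retnlb and Zg16. Of the 4325 cells, 1531 had 0 Zg16 UMIs while 1006 had at least 100, and 574 had 0 Retnlb UMIs. At least 10 UMIs of both were found in 520 cells, and under 10 of both in 1241. The cells were therefore split by log2((Retnlb UMIs + 1)/(Zg16 UMIs + 1)) into Retnlb-high (at least 1), Zg16-high (at most -1) and intermediate. A cell with 1 Retnlb UMI and 0 Zg16 UMIs thus counted as Retnlb-high, as 109 cells of mucosa and 10 of tumor did. These classes are ranges of 1 score and not cell types: 518 cells (12%) lay within 0.5 of a limit. In mucosa the median Retnlb-high cell held 23 to 38 Retnlb and 0 to 1 Zg16 UMIs, and the median Zg16-high cell 304 to 616 Zg16 and 3 to 4 Retnlb UMIs. In the tumors the median Retnlb-high cell held only 4 to 26 Retnlb and 0 Zg16 UMIs. Summed over cells, Zg16 in Retnlb-high cells of mucosa (50.5 to 150 CPM) overlapped its level in other epithelium. Retnlb in Zg16-high cells (966 to 1300 CPM) stayed above its level there.

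**Figure D2:**
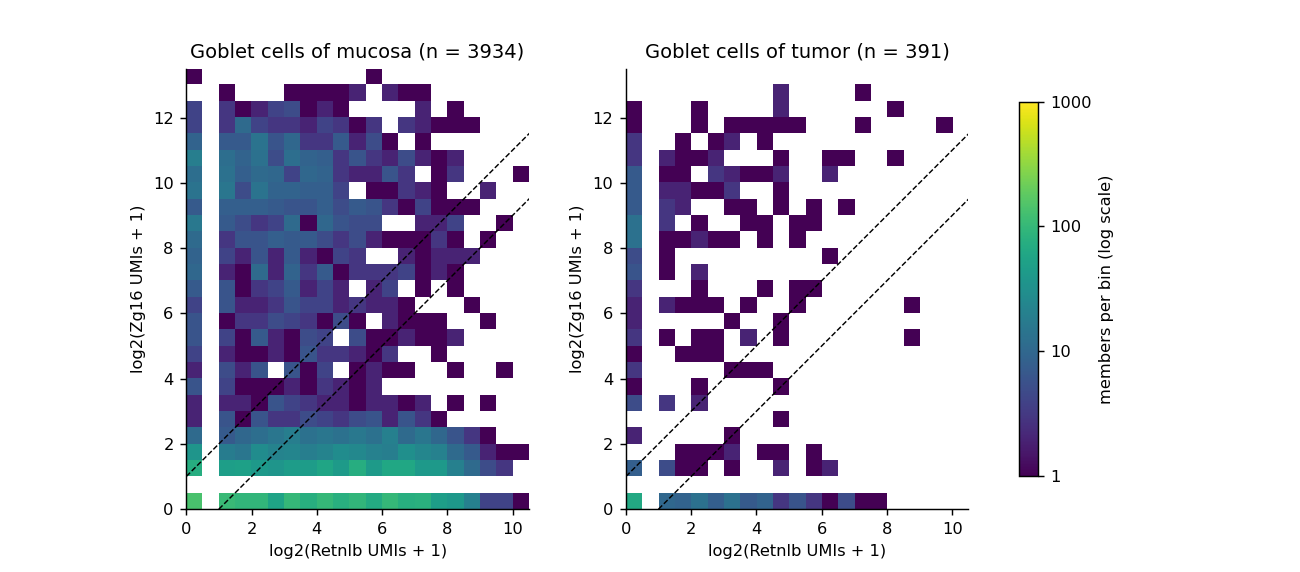
Joint distribution of Retnlb and Zg16 in the goblet cells of mucosa (3934 cells, left) and tumor (391 cells, right). Both axes are log2(UMIs + 1), the color gives cells per bin on a log scale, and the dashed lines are the class limits. In mucosa a band of cells at or near 0 Zg16 spans the whole Retnlb range, with a cloud of Zg16-rich cells above it, and in tumor the band ends at a lower Retnlb level than the richest cells reach.

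The Retnlb-high class held 2380 goblet cells of mucosa (60.5%) and 106 of tumor (27.1%), and the Zg16-high class 1103 (28.0%) and 207 (52.9%). Intermediate cells numbered 451 (11.5%) and 78 (19.9%). These shares pool the cells of all libraries, and tumors 3 and 4 alone gave 78 and 43 of the Zg16-high cells. Per library, the Zg16-high share was 11.5, 35.6 and 34.1% in mucosa 1 to 3. In the 10 tumors it ran from 0 to 74.1%, with a median of 38.0%. By library, Retnlb-high cells made up 75.2, 54.8 and 53.4% in mucosa 1 to 3, a mean of 61.2 ± 12.2% (SD, n = 3). In the 9 tumors with at least 10 goblet cells the share ran from 10.3% (tumor 4) through a median of 35.0% (tumor 8) to 53.1% (tumor 10), a mean of 32.4 ± 16.3% (SD, n = 9). Each of these 9 tumors lay below the mucosa of its own code. Averaged over the codes, the share was lower in tumor by 23.6 percentage points (value -23.6, exact two-sided permutation test within codes, p = 0.02, the smallest p that its 50 assignments can give). The size depended on the code, at -12.6 points in code A, -0.301 in code B with a single tumor, and -57.8 in code C. Without mucosa 1 the difference was -6.46 points (exact permutation p = 0.1, the smallest possible there). Thinning each cell to 5000 UMIs gave -23.2 points (exact permutation p = 0.02). Cell quality moved with class in some tumors: in tumor 3 the Zg16-high cells had a median of 12535.5 UMIs and 10.3% mitochondrial UMIs against 23084 and 5.15% in Retnlb-high cells, and in tumor 7 the values were 7674 and 11.02% against 23950.5 and 5.43%. Their part in the shares was not tested.

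Within mucosa, the 2 classes differed across much of the transcriptome. UMIs were summed over each class in each mucosa library and compared within the library by edgeR's quasi-likelihood test with Benjamini-Hochberg adjustment, a gene being called at an adjusted p under 0.05. Of 11640 genes tested, 39.3% were called, 17.9% higher in Retnlb-high and 21.4% higher in Zg16-high cells, and the median log2 fold change was 0.02. Counts of called genes in the lists below are to be read against these shares. In 63.9% of genes the difference had the same direction in all 3 libraries. Retnlb and Zg16, which chose the classes, were left out. Retnlb-high cells were slightly deeper than Zg16-high cells in each library, at median UMIs of 26114 and 24127, 11305 and 10596, and 15451 and 15347.5 in mucosa 1 to 3, and with every cell thinned to 5000 UMIs 2949 genes were called in place of 4570. The mitochondrial share was slightly lower in the Retnlb-high cells of each, at 3.25 against 3.96%, 4.47 against 5.00% and 4.07 against 4.70%, and the part of the mitochondrial share in the differences was not tested.

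Genes of the mucus layer divided sharply. The largest difference was that of Clca1, a secreted protease that processes the Muc2 gel, at 5.39, 6.42 and 5.72 scaled CPM in Retnlb-high cells of mucosa 1 to 3 and at 2437, 1662 and 3211 in Zg16-high cells. Its log2 fold change, Retnlb-high minus Zg16-high, was -8.66 ± 0.17 (SE, adjusted p = 5.53e-10). Fcgbp lay at 81.5, 152 and 136 in Retnlb-high and at 4615, 6505 and 6813 in Zg16-high cells (-5.63 ± 0.08, adjusted p = 9.86e-11). The trefoil peptide Tff3, which supports repair of the epithelium, lay at 201, 336 and 307 against 3914, 6865 and 7353 (-4.41 ± 0.07, adjusted p = 9.86e-11). For all of these the classes were separated in every library by more than 10 times. Muc2 itself did not differ in this way: it lay at 15180, 13800 and 14030 in Retnlb-high and at 18870, 10970 and 11740 in Zg16-high cells, higher in the former in mucosa 2 and 3 and in the latter in mucosa 1. Agr2 lay at 22540, 26640 and 25410 against 17160, 22710 and 23320. Spink4, a very abundant goblet cell peptide of the Kazal protease inhibitor family, differed by -0.19 ± 0.09 and was not called (adjusted p = 0.108, but called without mucosa 1 at -0.35), with overlapping classes at 9660 to 30240 and 11260 to 27650. Of the mucus list, 10 genes were counted, with the rule's Muc2 and Agr2 left out: 2 were higher in Retnlb-high cells (Itln1, Tff2), 7 were lower (Fcgbp, Clca1, Tff3, Ang4, Muc4, Muc1, Muc13), and the median log2 fold change was -1.40 beside 0.02 over all genes.

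Several secreted defense proteins and proteins of the surface epithelium were also higher in Zg16-high cells. The trypsin inhibitor Spink1 lay at 28.1 to 52.9 scaled CPM in Retnlb-high and at 3915 to 4733 in Zg16-high cells (-6.81 ± 0.17, adjusted p = 2.05e-09). Saa1, an acute phase protein with a close copy, Saa2, among which reads may be split, lay at 12.9, 26.3 and 35.1 against 416, 2497 and 1142 (-5.54 ± 0.27). The protease inhibitor Slpi lay at 48.3, 578 and 131 against 518, 6284 and 3701 (-3.89 ± 0.24), so that mucosa 2 exceeded the other libraries in both classes and Slpi overlapped between classes across libraries but not within one. Lypd8, a surface protein that binds bacterial flagella, lay at 704 to 1283 against 4154 to 10030 (-2.74 ± 0.07). Of 17 tested defense genes 10 were lower and 1, Itln1, was higher in Retnlb-high cells, with a median of -1.39. Over all genes 21.4% were called lower and 17.9% higher.

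Genes of the surface colonocyte list followed the same side. Of 21 tested, 19 were lower in Retnlb-high cells and only the uroguanylin gene Guca2b was higher (1.15 ± 0.08), and the list's median was -1.75. The keratin Krt20, a marker of the differentiated surface, fell by 3.35 on the log2 scale from Zg16-high to Retnlb-high cells, at 142, 563 and 355 and at 14.6, 41.4 and 44.6 scaled CPM. Mxd1, a transcriptional partner of Max found in cells that have left the cell cycle, lay at 175 to 236 in Zg16-high and at 11.1 to 23.6 in Retnlb-high cells (-3.74 ± 0.14). Klf4, a transcription factor needed for goblet cell maturation in the colon, lay at 743, 923 and 733 against 174, 208 and 170 (-2.12 ± 0.06, adjusted p = 5.45e-09). The classes did not overlap for any of these genes. Among 19 genes of granule release and ion transport, 13 were lower in Retnlb-high cells, among them the actin-severing Scin (-3.30 ± 0.11), the calpain Capn9 (-3.47 ± 0.09) and Bcas1 (-1.63 ± 0.07), and 2 were higher, the chloride channel Cftr and the transporter Slc12a8. The ferlin Fer1l6, a membrane fusion family member, lay at 10.6 to 12.7 against 152 to 176 (-3.87 ± 0.09).

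**Figure D3:**
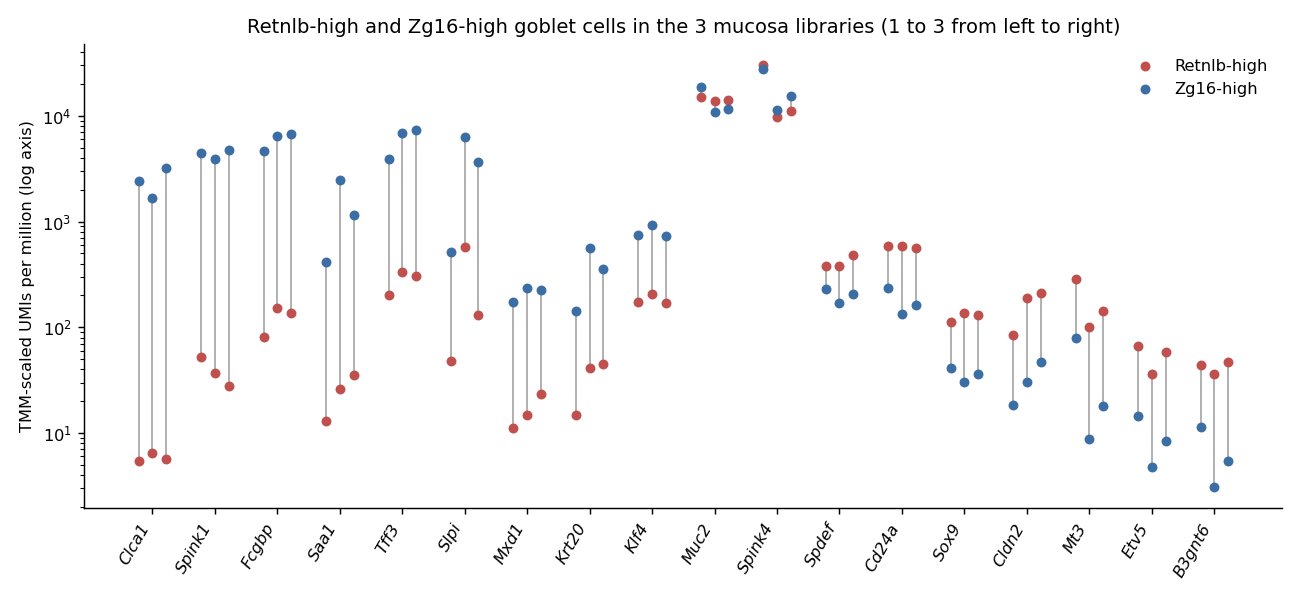
Levels of 18 genes in Retnlb-high and Zg16-high goblet cells of mucosa 1, 2 and 3 (left to right within each gene). The y axis gives TMM-scaled CPM on a log axis, each point is the sum over a class in 1 library, and grey lines join the classes of a library. Clca1, Spink1 and Fcgbp show the widest gaps, Muc2 and Spink4 overlap, and Spdef, Cd24a, Sox9, Cldn2, Mt3, Etv5 and B3gnt6 lie higher in the Retnlb-high class.

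The genes higher in Retnlb-high cells held many known from the crypt base and from progenitors. Sox9, a transcription factor of crypt base cells, lay at 111, 136 and 131 scaled CPM in Retnlb-high and at 41.0, 30.5 and 36.3 in Zg16-high cells (1.84 ± 0.12, adjusted p = 1.94e-06). The surface glycoprotein Cd24a lay at 586, 587 and 558 against 237, 134 and 163 (1.74 ± 0.13), and Cldn2, a claudin of crypt tight junctions that passes cations, at 84.4, 188 and 213 against 18.4, 30.1 and 47.4 (2.35 ± 0.11). Neither gene overlapped between the classes. Of 16 crypt base genes, 14 were higher, 0 were lower and the median was 1.22: the largest differences were those of the receptor Ephb3 (2.05 ± 0.24) and the hyaluronan receptor Cd44 (2.03 ± 0.21), at only 16.5 to 26.1 and 12.9 to 35.6 scaled CPM in Retnlb-high cells. Of 16 genes of replication and progenitors, 14 were higher, among them Mcm3 (1.63 ± 0.22) and Mcm6 (1.35 ± 0.19) of the replicative helicase, and the median was 0.73; the gate had already removed cells with 4 or more Mki67 and Top2a UMIs.

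The secretory regulators were split between the classes. Spdef lay at 378, 384 and 486 in Retnlb-high and at 230, 170 and 205 in Zg16-high cells (1.05 ± 0.10, adjusted p = 1.94e-05). Creb3l1, a membrane-bound regulator of secretory capacity, was also higher in Retnlb-high cells (0.93 ± 0.08). Of 20 such transcription factors 7 were higher and 6 lower, Klf4 among the latter, with a median of 0.05. Among 25 tested genes of mucin glycosylation, 9 were higher and 4 lower, and the largest differences ran in opposite directions for 2 branches of O-glycan synthesis. B3gnt6, which makes the core 3 structure, lay at 43.9, 36.2 and 47.0 against 11.3, 3.06 and 5.44 (2.85 ± 0.22), while Gcnt1, which makes core 2, lay at 12.5, 5.29 and 9.13 against 32.5, 23.8 and 35.3 (-1.80 ± 0.15). The genes of endoplasmic reticulum folding showed no common direction, with 9 of 37 higher, 8 lower and a median of 0.03. The counts of these 3 lists stand beside 17.9% called higher and 21.4% called lower over all genes. The folding list lay near those shares.

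Further genes higher in Retnlb-high cells were the metallothionein Mt3 (2.64 ± 0.23, at 284, 100 and 144 against 78.5, 8.85 and 18.1), the ETS factor Etv5 (2.63 ± 0.14), Tpd52l1 (2.53 ± 0.26), Ceacam12 (2.36 ± 0.19), the neuropilin Nrp2 (2.16 ± 0.21), the sialic acid hydroxylase Cmah (2.04 ± 0.13), the metal transporter Slc39a8 (1.94 ± 0.16), Slc9a3r2 (1.80 ± 0.10) and the galactosyltransferase B4galt4 (1.79 ± 0.11). On the other side stood the proton pump subunit Atp12a (-5.83 ± 0.21), Ly6m (-4.22 ± 0.48) and the cornified envelope gene Sprr2a3, a member of a family of close copies (-3.88 ± 0.18). Granins known from hormone-secreting cells lay there too: Chgb at 7.78, 122 and 173 scaled CPM in Zg16-high and at 0.269, 10.8 and 4.43 in Retnlb-high cells, and Chga at 4.24, 33.2 and 41.4 against 0.404, 4.63 and 2.40. Neither was called once cells with high doublet scores were removed (-2.63 and -1.86). Of 5 enteroendocrine markers tested, 4 were lower and Pyy was called higher in Retnlb-high cells. Pyy ran the other way in mucosa 3, at 2.16 in Retnlb-high against 3.63 in Zg16-high cells, and was highest in mucosa 2, at 21.3 against 3.19 (CPM scaled together with tumors). The hormone genes Gcg, Insl5, Sst and Cck did not pass the filter. Markers of B and plasma cells (3 of 5 higher), T cells (3 of 7 lower) and neutrophils (2 of 2 lower) also differed, and their part in the other differences was not tested. Over all genes 17.9% were called higher and 21.4% lower.

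Differences between the classes were seen in tumors as well, but there the summed Retnlb level overlapped between the classes. By the median cell, Retnlb was higher in the Retnlb-high class of each tumor that had both classes. In tumors 2, 3, 6 and 7 the medians were 16, 4, 12.5 and 8.5 UMIs against 3.5, 0, 11 and 0 in Zg16-high cells. Over the tumors, summed Retnlb lay at 248 to 2962 CPM in Retnlb-high and at 207 to 4736 CPM in Zg16-high cells. Zg16 lay at 0 to 436 and at 31270 to 111700 CPM. In the 4 tumors with at least 10 cells of both classes (tumors 2, 3, 6 and 7), a comparison added after the mucosa values were known called 450 of 3930 genes, 144 higher and 306 lower in Retnlb-high cells. Clca1 (-4.36 ± 0.33), Fcgbp (-3.69 ± 0.20), Tff3 (-2.97 ± 0.23), Krt20 (-3.50 ± 0.40) and Klf4 (-1.23 ± 0.19) were again lower in Retnlb-high cells, and Cldn2 (2.94 ± 0.38), Mt3 (2.77 ± 0.48), Cd24a (1.5 ± 0.21) and the secreted lectin Reg4 (2.0 ± 0.21) higher. In mucosa Reg4 was called at 0.67 ± 0.21, a call that was lost without mucosa 2 (0.22). Spdef (0.63 ± 0.27, adjusted p = 0.156) and Sox9 (1.00 ± 0.33, adjusted p = 0.0618) did not pass the test there. In these tumors the Zg16-high cells also held fewer UMIs and a larger mitochondrial share than the Retnlb-high cells, whose part was not tested.

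**Figure D4:**
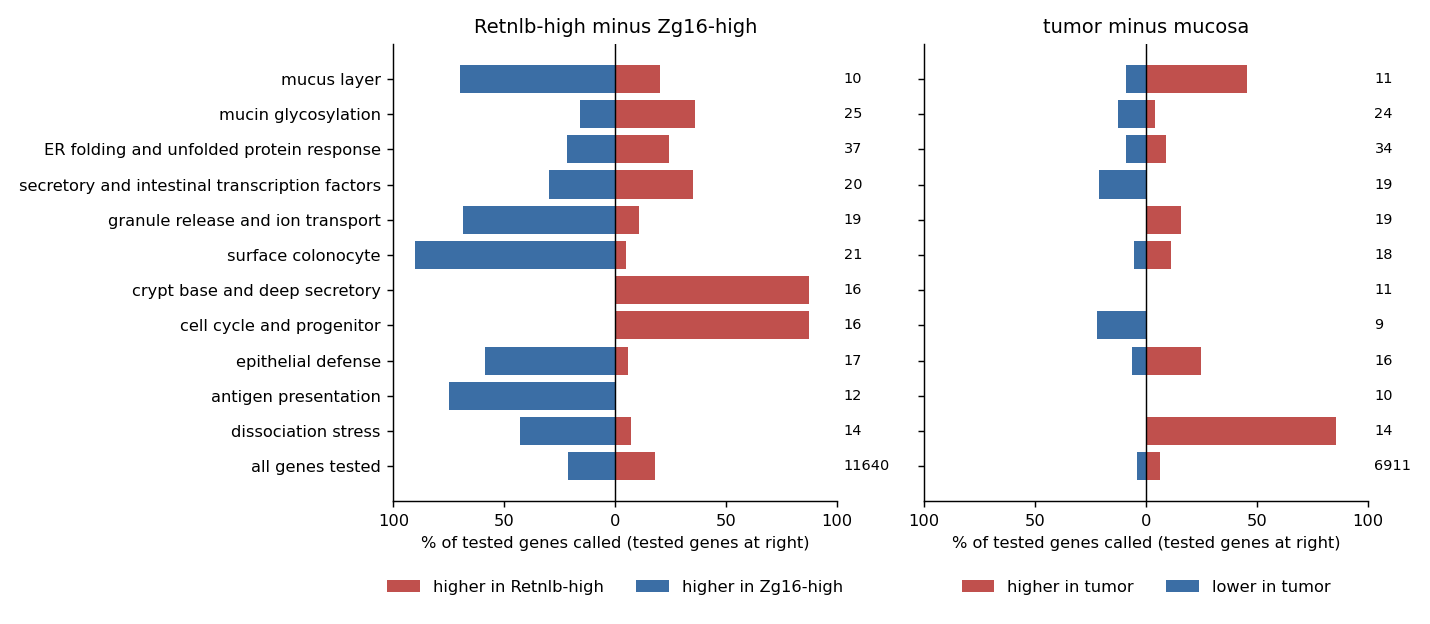
Share of tested genes called in 11 gene lists and over all genes, for Retnlb-high minus Zg16-high cells of mucosa (left) and tumor minus mucosa goblet cells (right). Bars to the right of 0 count genes higher, and to the left genes lower, in % of tested genes, whose number stands at the right edge of each panel. The surface colonocyte list lies on the Zg16-high side (19 of 21 genes) and the crypt base list on the Retnlb-high side (14 of 16), while in tumor only the dissociation stress list (12 of 14) has over 50% of its genes called in 1 direction.

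Goblet cells of tumors were next compared with those of mucosa. UMIs of all goblet cells were summed per library, and the 9 tumors with at least 10 goblet cells were set against the 3 mucosa libraries. Tumor 9, with 7 cells, was left out. edgeR's quasi-likelihood test with Benjamini-Hochberg adjustment called 10.2% of 6911 genes, 436 higher (6.31%) and 271 lower (3.92%) in tumor, in 6.53% of genes the groups did not overlap, and 5.22% were both called and free of overlap. Leaving out 1 library gave 289 (without mucosa 3) to 793 calls (without tumor 6). The median log2 fold change was 0.02. Scaled by total counts alone, the median was -0.17 and the split 255 higher to 846 lower, so that directions of small size depend on the TMM scaling, which takes the bulk of genes as unchanged.

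Of the mucus genes whose groups did not overlap, Tff3 rose the most. It lay at 574, 2119 and 2205 scaled CPM in mucosa 1 to 3 and at 5026, 9297 and 12230 in the lowest, median and highest tumor (2.47 ± 0.37, adjusted p = 0.000609), with every tumor above every mucosa library. Muc13, a membrane mucin, rose from 418, 729 and 756 to 804, 1121 and 1279 (0.76 ± 0.20, adjusted p = 0.0221), again with no overlap, a call lost without mucosa 1 (0.52, adjusted p = 0.102) and with tumors summed per animal code and the code as a block (0.73, adjusted p = 0.0712). Retnlb fell: mucosa lay at 2554, 3783 and 2494 and the tumors at 172, 766 and 2347 (-1.51 ± 0.45, adjusted p = 0.0427), with no overlap but with the highest tumor just below mucosa. This call was lost without any 1 of mucosa 1, 2 and 3 and of tumors 2, 3, 4, 5 and 7, where the fold change ran from -1.62 to -1.29, while that of Tff3 held in all 12 fits that left out a library. In cells under 10% mitochondrial UMIs, Retnlb (-1.30, adjusted p = 0.168), Muc13 (0.62, adjusted p = 0.117), Muc1 (0.74, adjusted p = 0.124) and Ang4 (6.28, adjusted p = 0.0575) were not called. The membrane mucin Muc1 (1.02 ± 0.25), the ribonuclease Ang4 (6.03 ± 1.63) and the lectin Itln1 (3.41 ± 0.89) were also called higher, though their groups overlapped (Muc1 not without mucosa 1 or 3), and Ang4 ran from 0 to 657 in tumors. With the animal code as a block, Ang4, Itln1 and Mmp7 were not called (adjusted p = 0.0646, 0.069 and 0.0612), nor in any of the 3 fits that left out 1 mucosa library (adjusted p = 0.075 to 0.119). Ang4 and Itln1 are products of Paneth cells too, and Mmp7, another Paneth gene, ran from 2.67 to 1246 in tumors against 4.01 to 15.8 in mucosa (5.04 ± 1.39, adjusted p = 0.0291). Ang4, Itln1 and Mmp7 lay too low in mucosa to pass the low-count filter without the tumors, so the filter set their direction. Summed Paneth markers other than the rule's Lyz1 ran from 7.60 to 10810 CPM in the goblet cells of tumors and from 8.12 to 27.3 in those of mucosa, with Ang5 at 0 in both, and their part in these genes was not tested.

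Several abundant mucus genes did not pass the test. Zg16 lay at 5937, 21290 and 23990 in mucosa and at 8748, 16000 and 44770 in tumors (0.51 ± 0.47, adjusted p = 0.543), Fcgbp at 516, 1882 and 1939 against 1327, 2723 and 4060 (0.88 ± 0.41, adjusted p = 0.184), and Clca1 at 236, 452 and 859 against 102, 647 and 1345 (0.35 ± 0.65, adjusted p = 0.791). The groups overlapped in each. Spink4 spread from 10500 to 67310 among the tumors (1.10 ± 0.44, adjusted p = 0.125), with mucosa at 28560, 9297 and 11740. Muc2 lay at 14520, 11370 and 11780 in mucosa and from 5902 to 19050 in tumors, and Agr2 at 20100, 22910 and 22830 in mucosa and from 11700 to 16580 in tumors, below each mucosa library. Without Muc2 and Agr2, 5 of 11 mucus genes were called higher and 1, Retnlb, lower, with a median of 0.88. Over all genes 6.31% were called higher and 3.92% lower. Among the mucus genes called higher were Ang4 and Itln1, whose direction the filter had set. With the animal code as a block, Spink4 was called (1.12, adjusted p = 0.016), as it was without mucosa 1 (1.74, adjusted p = 0.0318).

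Transcription factors of the intestinal and secretory lineage were called in 1 direction only, 4 of 19 lower and 0 higher, with a median of 0.00. Over all genes 3.92% were called lower and 6.31% higher. Cdx2, the homeobox factor that sets intestinal identity, lay at 138, 134 and 142 in mucosa and at 8.46, 25.7 and 76.1 in the lowest, median and highest tumor (-2.24 ± 0.29, adjusted p = 0.000199). Atoh1, which commits progenitors to the secretory lineage, lay at 190, 190 and 226 in mucosa and at 86.2, 113 and 129 in tumors (-0.88 ± 0.13, adjusted p = 0.000609). Neither overlapped. Gfi1, an Atoh1 target in the lineage (-1.03 ± 0.30), and Creb3l4 (-0.55 ± 0.16, adjusted p = 0.0432) were the other 2, with overlapping groups, and both calls were lost in most fits that left out a library, in 8 of 11 for Gfi1 (-1.15 to -0.94 over all of them) and in 7 of 12 for Creb3l4 (-0.72 to -0.40), while those of Cdx2 and Atoh1 held in all 12. Spdef (-0.64 ± 0.23, adjusted p = 0.0837) and Klf4 (0.44 ± 0.23, adjusted p = 0.249) did not pass, though Spdef was called with tumors summed per code and the code as a block (-0.82, adjusted p = 0.0388).

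Genes of mucin glycosylation and protein folding were called in both directions, in counts to be read against the 10.2% called over all genes. B3gnt6 fell from 35.1, 21.7 and 28.9 in mucosa to 0, 0.918 and 16.9 in tumors (-3.17 ± 0.49, adjusted p = 0.000788), on 21 tumor UMIs in all. B4galnt2, which makes the Sda antigen (-1.02 ± 0.21), and the CMP-sialic acid transporter Slc35a1 (-0.78 ± 0.15) also fell, while Gcnt1 rose (1.48 ± 0.26, adjusted p = 0.00203), so 1 of 24 genes was higher and 3 were lower, with a median of -0.08. Of 34 genes of endoplasmic reticulum folding, 3 rose (the stress factor Ddit3, the chaperone partner Dnajb9 and the ubiquitin ligase Syvn1) and 3 fell (Creb3l4 and the disulfide isomerases Pdia5 and Pdia6), with a median of 0.00. In granule release, 3 of 19 rose and 0 fell, among them Sytl2, a binding partner of secretory granules (0.82 ± 0.16), and the calpain Capn8 (0.89 ± 0.27). Of the 12 fits that left out a library, the call was lost in 7 for Ddit3, 9 for Dnajb9, 2 for Syvn1, 7 for Pdia6 and 10 for Capn8, each with its sign kept, and Capn8 was not called with the animal code as a block (0.76, adjusted p = 0.112). With tumors summed per code and that block, B4galnt2 (-0.93, adjusted p = 0.0505), Pdia6, Dnajb9, Syvn1 and Capn8 were not called (adjusted p = 0.0649, 0.0766, 0.105 and 0.155). Creb3l4, Pdia6, Ddit3, Dnajb9, Syvn1 and Capn8 were not called in cells under 10% mitochondrial UMIs (adjusted p = 0.105 to 0.322).

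Immediate early and heat shock genes, often induced while tissue is dissociated, rose together: 12 of 14 tested rose and 0 fell, with a median of 1.58. Over all genes 6.31% were called higher. Atf3, a stress-induced transcription factor, lay at 13.8, 12.6 and 15.6 in mucosa and at 101, 148 and 599 in tumors (4.09 ± 0.52, adjusted p = 0.000194). Egr1 (2.66 ± 0.35), the phosphatase gene Dusp1 (2.53 ± 0.35), Fos (1.30 ± 0.31) and Jun (1.85 ± 0.46) rose as well, each with no overlap. Fos was not called without mucosa 2 or 3 (1.31 and 1.29), nor Jun without mucosa 1 or 3 (1.59 and 1.90). The summed list lay at 1108 to 1317 CPM in goblet cells of mucosa and at 1664 to 5166 CPM in those of tumors, and in other epithelium at 1073 to 1231 and 2554 to 5750 CPM, so it moved with the tissue in both kinds of epithelium. The dissociation protocol also moved with the tissue.

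Genes of blood cells moved in both directions. Of 10 neutrophil markers, 5 passed the low-count filter, and all 5 were called higher in tumor. These genes lay near 0 in mucosa and passed the filter only through the tumors, so the filter set their common direction. S100a9, a subunit of calprotectin, lay at 0.132, 2.46 and 0.207 in mucosa and at 29.6, 93.0 and 610 in tumors (7.55 ± 1.13, adjusted p = 0.000609). S100a8, Il1b, Retnlg and G0s2 ran the same way. Summed over the list, neutrophil markers gave 0.344 to 8.50 CPM in goblet cells of mucosa, where Acod1, Clec4d, Csf3r and Mmp9 were at 0, and 71.4 to 1137 CPM in those of tumors, where 10 of 10 had a UMI. The other epithelium of tumors held 301 to 1011 CPM. Macrophage markers (4.09 to 21.7 against 45.3 to 173 CPM) ran the same way, and the 3 of 10 that passed the filter were called higher, with the same limit. Summed B and plasma cell markers lay at 9.12 to 437 against 96.3 to 9502 CPM with 0 of 4 called. Hemoglobin genes fell: Hbb-bs lay at 404, 188 and 805 in mucosa and at 0, 6.67 and 33.0 in tumors (-5.28 ± 0.51, adjusted p = 1.68e-05), as did Hbb-bt, Hba-a1 and Hba-a2, close copies among which reads may be split. No goblet cell had a Ptprc UMI by the rule, and the part of RNA from these cells in other differences was not tested.

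Among genes with a mean of at least 50 scaled CPM in the higher group, the largest rises with no overlap were those of the interferon-induced Ifitm1, at 0.0329, 0.182 and 0 in mucosa and at 15.2, 56.6 and 162 in tumors (9.65 ± 0.84, adjusted p = 4.83e-06, on 5 and 523 UMIs), and of the neutrophil-attracting chemokine Cxcl2 (7.68 ± 0.89). The claudin Cldn4 lay at 2.50, 3.92 and 6.04 against 25.2, 44.9 and 163 (3.91 ± 0.53, adjusted p = 0.000245), the growth factor Hbegf rose by 2.60 ± 0.57 and Slfn4 by 2.36 ± 0.42. Of 16 tested defense genes 4 rose, the siderophore-binding Lcn2 (4.75 ± 0.85) and the cytokine Il18 (1.72 ± 0.36, not called without mucosa 3 at 1.64) beside Ang4 and Itln1, and Retnlb fell. Over all genes 6.31% rose and 3.92% fell. Lcn2, Ang4 and Itln1 lay too low in mucosa to pass the low-count filter without the tumors, so the filter set their direction. The same held for Ifitm1, Cxcl2 and Cldn4. Of 10 antigen presentation genes 0 were called, though the list's median was -0.63. The invariant chain Cd74, its most abundant member in mucosa, lay at 1159, 2265 and 2202 in mucosa and at 202, 856 and 1681 in tumors (-1.24 ± 0.46, adjusted p = 0.102). With tumors summed per code and the code as a block it was called lower (-1.60, adjusted p = 0.00686).

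Among genes that fell, the fatty acid binding protein Fabp2 lay at 261, 403 and 463 in mucosa and at 24.0, 35.9 and 189 in tumors (-2.78 ± 0.42, adjusted p = 0.00063). Rgs17, a regulator of G protein signalling, lay at 58.2, 62.1 and 57.3 against 0, 8.08 and 28.8 (-2.69 ± 0.42). The G protein subunit Gng11 (-2.07 ± 0.24), the prion protein gene Prnp (-2.34 ± 0.29), Pibf1 (-2.56 ± 0.32), Plet1 (-2.07 ± 0.45) and the cystathionine synthase Cbs (-1.61 ± 0.30) also fell, each with no overlap. Car1, a carbonic anhydrase of surface colonocytes, was called lower (-4.06 ± 0.83, adjusted p = 0.0052), but mucosa 1 lay at 13.8 beside 1528 and 1680 in mucosa 2 and 3 and within the tumors' 5.07 to 186, and with tumors summed per code and the code as a block it was not called (-3.26, adjusted p = 0.281). Of 18 surface colonocyte genes Car1 fell and Muc3 (1.52 ± 0.44) and Phgr1 (0.66 ± 0.19) rose, both calls being lost without any 1 mucosa library, and that of Muc3 also with the animal code as a block (1.51, adjusted p = 0.0536) and that of Phgr1 with tumors summed per code (0.52, adjusted p = 0.108). Neither was called in cells under 10% mitochondrial UMIs (1.35 and 0.59). Of 11 crypt base genes 0 were called, and of 9 progenitor genes Stmn1 (-1.05 ± 0.21) and Mcm6 (-1.34 ± 0.33) fell, Mcm6 not without mucosa 2 or 3 (-1.26 and -1.30). These list counts are to be read against the 6.31% called higher and 3.92% called lower over all genes.

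**Figure D5:**
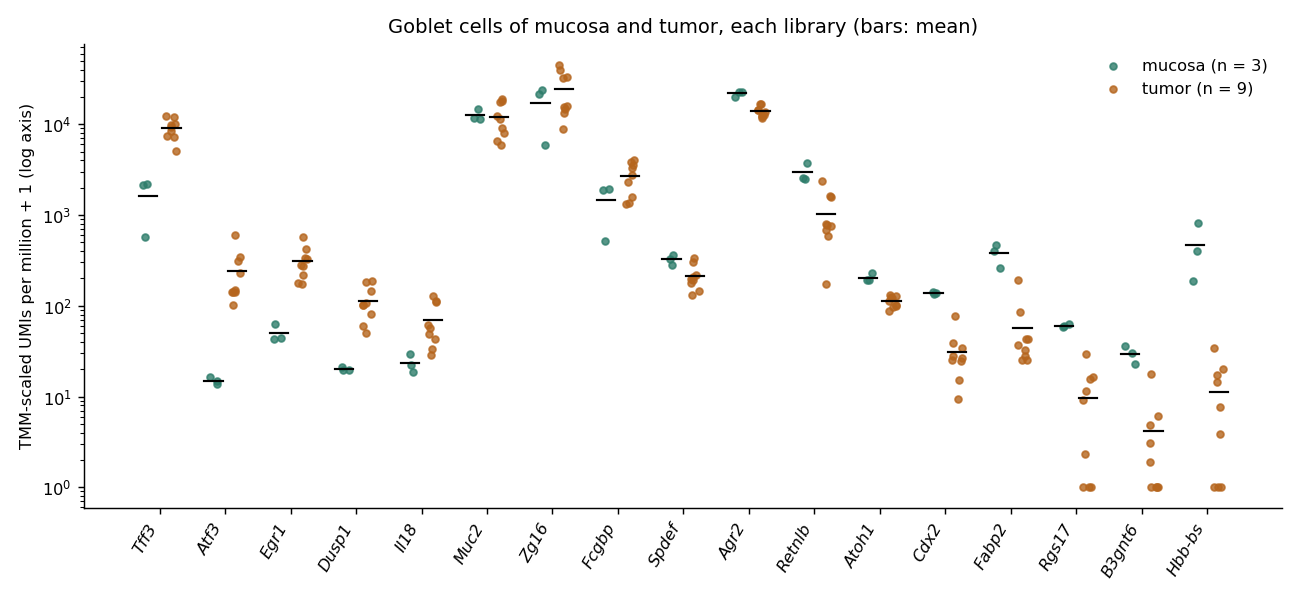
Levels of 17 genes in goblet cells of the 3 mucosa libraries and 9 tumors. The y axis gives TMM-scaled CPM plus 1 on a log axis, each point is 1 library, and black bars are group means. Tff3, Atf3, Egr1 and Dusp1 lie higher in every tumor than in any mucosa library, Retnlb, Atoh1, Cdx2, Fabp2, Rgs17, B3gnt6 and Hbb-bs lie lower, and Muc2, Zg16, Fcgbp and Spdef overlap.

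Because the classes had different shares in tumor and mucosa, the comparison was repeated within each class, as an addition made after the shares were known. Within Retnlb-high cells 95 of 4540 genes were called, and within Zg16-high cells 123 of 6729. These sums rest on fewer cells than the comparison over all goblet cells and are parts of it. They also rest on different tumors, those with at least 10 cells of the class. These were tumors 2, 3, 5, 6, 7 and 10 for Retnlb-high and tumors 1, 2, 3, 4, 6 and 7 for Zg16-high cells. The Zg16-high set held no tumor of code B, so a call in 1 class alone is no test of a difference between the classes. Tff3 rose in both (3.33 ± 0.60 and 1.64 ± 0.32), Cdx2 fell in both (-2.21 ± 0.32 and -1.62 ± 0.31), and so did Fabp2 (-2.94 ± 0.40 and -2.60 ± 0.46). Atoh1 fell in Zg16-high cells (-1.03 ± 0.20, adjusted p = 0.0185) and was not called in Retnlb-high cells (-0.55 ± 0.18, adjusted p = 0.155). Fcgbp was called higher in the Retnlb-high cells of tumors (1.89 ± 0.39, adjusted p = 0.0206) and differed by 0.05 ± 0.30 in Zg16-high cells. B4galnt2, Slc35a1, Pdia5, Pdia6, Dnajb9, Syvn1, Creb3l4, Sytl2, Muc3 and Plet1 were called in neither class (adjusted p = 0.0623 to 0.617). Muc1, Muc13, Fos, Jun, Stmn1 and Phgr1 were called in neither class as well, on fewer cells. In Retnlb-high and Zg16-high cells the fold changes were 1.06 and 0.74 for Muc1, 0.68 and 0.40 for Muc13, 1.5 and 1.05 for Fos, 1.48 and 2.08 for Jun, -1.03 and -0.49 for Stmn1 and 0.80 and 0.22 for Phgr1. Gcnt1 was at 0.71 ± 0.26 in Zg16-high cells (adjusted p = 0.17).

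Whether a difference between tumor and mucosa was itself different in goblet cells was tested against the other epithelium of the same libraries, with the library as a block. The interaction was called for 24.4% of 15372 genes, 11.7% with a higher and 12.7% with a lower value in goblet cells. The other epithelium differed in its markers between the tissues. Surface colonocyte genes summed there to 15730 to 44250 CPM in mucosa and 2508 to 16940 in tumors. Wnt targets and tumor genes summed to 63.0 to 134 and 670 to 4300 CPM. The part of this difference in the interactions was not tested. From mucosa to tumor, mean Cdx2 went from 161 to 32.0 scaled CPM in goblet cells and further, from 231 to 6.70, in other epithelium (difference of log2 differences 2.92 ± 0.35, adjusted p = 6.09e-06). Fabp2 went from 437 to 59.2 in goblet cells and from 1218 to 12.6 in other epithelium (4.11 ± 0.41), and Tff3 from 1899 to 9666 against 31.3 to 27.6 (2.93 ± 0.44). Gcnt3, an O-glycan branching enzyme, went from 214 to 154 in goblet cells and from 47.5 to 1.48 in other epithelium (4.68 ± 0.41, adjusted p = 2.24e-07). On the other side, Mt3 went from 149 to 61.4 in goblet cells and from 2.66 to 564 in other epithelium (-9.07 ± 0.65, adjusted p = 2.15e-08), and Pdlim4 from 0.623 to 4.78 against 0.093 to 92.4 (-6.64 ± 0.65).

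Genes that mark the tumor epithelium of this model stayed low in its goblet cells. Summed over 16 Wnt targets and tumor genes, goblet cells held 36.9 to 42.2 CPM in mucosa and 30.7, 61.0 and 351 CPM in the lowest, median and highest tumor, while the other epithelium of tumors held 670 to 4300 CPM. Cdkn2a, whose locus encodes p16 and p19Arf, gave 17 UMIs in all goblet cells of the tumors (0 to 9.85 CPM) and 9700 in the other tumor epithelium (23.2 to 101 CPM), and the growth factor Ptn gave 26 UMIs (0 to 9.90 CPM) against 84.9 to 589 CPM. The ranges did not overlap for either gene. Only 3 list members were tested in goblet cells, of which the Wnt inhibitor Wif1 (5.98 ± 1.16) and the homeobox factor Prox1 (2.66 ± 0.58) were called higher in tumor, with overlapping groups, Prox1 not with tumors summed per code and the code as a block (2.38, adjusted p = 0.052). Wif1 and Prox1 lay too low in mucosa to pass the low-count filter without the tumors, so the filter set their direction.

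The difference between the classes also differed between tissues for a few genes. Over the 3 mucosa libraries and the 4 tumors with 10 cells of both classes, the interaction was called for 0.396% of 8332 genes, 24 higher and 9 lower. The gap between the classes was narrower in tumors for Spink1, at mean scaled CPM of 1597 in Retnlb-high and 8022 in Zg16-high cells of tumors and of 38.0 and 4075 in mucosa (4.74 ± 0.47, adjusted p = 9.66e-05), for Clca1, at 59.5 and 1222 against 5.66 and 2279 (4.27 ± 0.45), for Fcgbp, at 387 and 4886 against 119 and 5591 (1.92 ± 0.23), and for Tff3, at 2297 and 15200 against 273 and 5652 (1.43 ± 0.28). In each of these 4 genes the Retnlb-high cells of each of these 4 tumors lay above those of every mucosa library. This did not hold over all 10 tumors, some with as few as 3 Retnlb-high cells. There Clca1 went down to 0 and Fcgbp to 68.6 CPM, beside 5.36 to 6.96 and 81.0 to 164 CPM in mucosa. The Retnlb-high cells of all tumors held 127 Clca1 UMIs. High doublet scores fell on 38.9% of the Retnlb-high cells of tumor 7, 16.7% in tumor 3 and 0% in tumors 2 and 6. Their part in the narrower gap was not tested. With no block for the library, edgeR called 0 of 7783 genes, beside 332 at an unadjusted p under 0.05. With libraries of at least 5 cells of both classes, Clca1 was called again while Spink1, Fcgbp and Tff3 were not (3.27, 1.57 and 1.30).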

How the data were processed

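Single-cell libraries of 10 tumors and 3 mucosa samples were made with a droplet kit. The authors deposited filtered matrices of UMI counts per gene and barcode, not normalized. The submitters' processing notes name Cell Ranger 6.0.0 and mm10, while the study's methods name another release of that tool, and the annotation release was not given in the sources used here. Of the file columns, 0 belonged to other samples. Libraries were grouped by the tissue label and tied to animals by the code in the titles. The members and the gene lists were chosen with earlier results of these data known.

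Counts of the goblet cells were summed per library, or per class and library, and tested in R 4.3.3 with edgeR 4.0.16 (limma 3.58.1, TMM scaling, filterByExpr, quasi-likelihood test, Benjamini-Hochberg adjustment, call at an adjusted p under 0.05). Genes of the cell rule were left out of list counts, medians and sums. Scaled CPM are CPM of the TMM-scaled library size. The SE of an edgeR fold change was worked back from the test. It is the absolute log2 fold change divided by the square root of the quasi-likelihood F statistic. Tumor 9, with under 10 goblet cells, was left out of the fits except an alternative with libraries of at least 5. The class comparison and the interactions had the library as a block. Totals were 57221300 to 116133079 UMIs per library, and intervals cover counting error only. Doublets were scored against simulated pairs at a rate of 0.8% per 1000 barcodes and kept in the main values. Thinning drew 5000 UMIs per cell with a fixed seed (11) and left out shallower cells. Other steps used Python 3.11.15, numpy 2.4.6, scipy 1.17.1, pandas 2.3.3, scikit-learn 1.9.0 and matplotlib 3.10.9.

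Named genes were the 12 largest and 12 smallest fold changes among called genes with no overlap between groups (in the class comparison, with 1 direction in every library) and a mean of at least 50 CPM in the higher group, leaving out Gm, Rik, mitochondrial, ribosomal protein and immunoglobulin variable genes. Each list gave its 4 most abundant members and its 2 largest called changes, the interactions gave 6 genes each way, and the markers, the rule's genes and Cdkn2a were added. Genes behind small counts, and others outside this rule, were named after their values were seen.

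For the animal code, each tumor's deviations from its group mean were compared with those of the mucosa of its code: over 6911 genes r was 0.272 in code A, -0.0164 in code B (1 tumor) and 0.183 in code C. The code comes from the sample titles. The 2 classes of a mucosa library, which share that library, deviated together (r = 0.634, 0.582 and 0.476 over 11640 genes).

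Alternatives were other scaling, DESeq2 1.42.0, no filter, each library left out, the block, other gates, class limits and thinning. The fits were tested on simulated counts with 200 genes changed 4-fold: 100% of them were recovered for tumor against mucosa (7007 genes run), 94% for the classes (11766), 68% for goblet against other epithelium (15035) and 35% for class by tissue (8269). False calls made up 3.85, 2.59, 6.21 and 2.78% of calls in that order. The simulated counts had a fixed dispersion and no effect of animal or library, and the changed genes were not among the rarest. The recovered shares hold for that setting only.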

Additional observations from a re-analysis of the deposited data

Results flagged for a closer look

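A value was singled out when 1 library lay far from the others of its group by Dixon's criterion, which chance alone meets in about 1 in 20 groups. Of 72 values tested, 3 had such a library. Tumor 3 held the highest share of goblet cells of the 10 tumors, at 8.64% of non-cycling epithelium. Gcnt1 was lowest in tumor 6, at 11.8 scaled CPM with the next tumor at 28.3, and Cbs was lowest in tumor 8, at 4.23 with the next at 26.9.

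Other values were singled out because the difference between tumor and mucosa was itself different in goblet cells and in the other epithelium by the interaction test. Beside Gcnt3 (4.68), Fabp2 (4.11), Tff3 (2.93), Cdx2 (2.92), Mt3 (-9.07) and Pdlim4 (-6.64), described above, the largest rested on a single tumor. The hormone genes Gcg (12.92 on the log2 scale) and Insl5 (11.16) lay at 250 and 689 scaled CPM in the goblet cells of tumor 7 and at 0 to 2.62 and 0 in those of every other tumor. Without tumor 7 neither was called, at 5.30 for Gcg (adjusted p = 0.424) and -1.81 for Insl5 (adjusted p = 0.925). In the other epithelium mean Gcg was 183 in mucosa and 2.67 in tumor.

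Ang4 (4.78) averaged 157 scaled CPM in goblet cells of tumors and 2.38 in those of mucosa, beside 1.10 and 1.06 in other epithelium, and was not called without mucosa 1 (1.88) or tumor 2 (4.16). Retnlb (3.51) went from 3436 to 1111 in goblet cells and from 18.2 to 0.362 in other epithelium. Sprr2a3 (4.21) went from 315 to 1023 in goblet cells and from 994 to 245 in other epithelium, and the retinal dehydrogenase gene Aldh1a1 (4.17) from 15.2 to 2.10 and from 83.1 to 0.635. The difference was negative for Tesc (-5.50), from 8.10 to 14.6 in goblet cells and from 0.831 to 73.8 in other epithelium, and for Pnliprp2 (-4.82), from 1.65 to 5.95 and from 0.613 to 65.2. It was negative too for Timp2 (-4.59), from 17.1 to 7.39 and from 5.87 to 58.9, and for Hbb-bt (-4.69), from 98.7 to 2.05 and from 134 to 80.0.

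The difference between the classes differed between tissues for Spink1 (4.74), Clca1 (4.27), Fcgbp (1.92) and Tff3 (1.43), given above. Of the 33 genes called, 10 more are given here, those that the rule for named genes selected. The peptide hormone gene Pyy (9.41) lay at 8908 scaled CPM in the Retnlb-high cells of tumor 7 and at 0 to 4.22 in those of tumors 2, 3 and 6. High doublet scores fell on 38.9% of the 18 Retnlb-high cells of tumor 7, and their part was not tested. Ang4 (7.54) lay at 169 and 85.5 in the Retnlb-high cells of tumors 2 and 6 and at 0 in those of tumors 3 and 7. The plasma cell genes Jchain (-5.10) and Igha (-4.09) lay at 577 and 1043 in the Zg16-high cells of tumor 3. In mean scaled CPM of Retnlb-high and Zg16-high cells, Hsd17b2 (2.61) lay at 76.0 and 142 in tumors and at 16 and 181 in mucosa. Cma1 (2.52) lay at 51.0 and 14.5 against 15.6 and 32.5. Car1 (-2.85) lay at 6.89 and 194 against 610 and 2069. Mgst1 (-1.76) lay at 48.4 and 138 against 109 and 99.1. Rnd3 (-1.71) lay at 21.0 and 58.5 against 42.6 and 34.9. Clca3b (-1.62) lay at 89.6 and 120 against 92.9 and 43.6.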

How the results depend on the processing

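Of the 61 genes named as called between tumor and mucosa, 19 were not called in at least 1 of the fits that left out 1 library, and of 46 between the classes, 1 was not. The 707 calls (10.2% of the genes tested) became 1101 with total counts alone (15.9%) and 1670 with no filter on low counts (8.98%). They became 332 in cells under 10% mitochondrial UMIs (5.27%). Within Retnlb-high cells 95 (2.09%) and within Zg16-high cells 123 (1.83%) were called, a pair of fits added after seeing the data. Calls ran from 289 to 793 with 1 library left out (383 without mucosa 2 and 289 without mucosa 3). The animal code as a block gave 790 calls (10.8% of the genes tested), and tumors summed per code with the block 936 (7.61%). DESeq2 gave 1022. Between the classes 4570 calls became 2653 with DESeq2, 1874 with no library block, 2018 with classes cut by rank within each library, 2949 after thinning, 450 in the tumors and 2906 to 5047 with 1 library left out (2906 without mucosa 3). For goblet against other epithelium, 3746 became 2299 with no block and 2449 to 4183 with 1 library left out (2458 without mucosa 2 and 2449 without mucosa 3). For class by tissue, 33 became 0 with no block and 30 with libraries of at least 5 cells of both classes. The Retnlb-high share difference ran from -35.2 to -6.46 points with 1 library left out, and its test could not pass the threshold without mucosa 1 (-6.46) or mucosa 2 (-29.1), where the smallest p is 0.1. With no pairing by code it was -28.8 (exact permutation p = 0.0136). The cause of these changes was not tested. Signs turned for Clca1 between tumor and mucosa without mucosa 1 (-0.01, with a range of -0.01 to 0.92 over the libraries left out), under 10% mitochondrial UMIs (-0.45) and within Zg16-high cells (-0.68), and for Klf4 within Zg16-high cells (-0.28). They also turned for Spink4 between the classes over all libraries (0.17) and in tumors (0.36), for Reg4 with classes cut by rank (-0.26), and for Insl5 against other epithelium without tumor 7 (-1.81, in a range of -1.81 to 17.14). Tumors held 391 goblet cells in all, which limits what can be seen in genes of low level.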
